A study of Arabidopsis thaliana with 8 samples.

Results

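Ethylene signalling in Arabidopsis thaliana was followed through the small RNAs that map to 7 of its genes, among 32420 genes in the deposited table. The genes were chosen by locus, as the receptor ETR1 (AT1G66340), the kinase CTR1 (AT5G03730), the membrane protein EIN2 (AT5G03280), the transcription factors EIN3 (AT3G20770) and EIL1 (AT2G27050), and the F-box proteins EBF1 (AT2G25490) and EBF2 (AT5G25350). Of these 7 genes, 7 had a row in the table, and 7 passed the filter on low values in both size classes.

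Small RNAs of 21 and 22 nt were sequenced from the aerial parts of untreated 20-day-old plants, which had spent 6 days on MS medium before 14 days on soil. One group, es3, was ein5-1 ski2-3, a double mutant of the 5'-3' exoribonuclease EIN5 (XRN4) and of SKI2, a helicase that feeds RNA to the cytoplasmic exosome. The other, es3dd, carried ein5-1 and ski2-3 as well and in addition dcl4-2 and dcl2-1, which affect the Dicer enzymes that cut 21-nt and 22-nt siRNAs. Both groups therefore carry the decay mutations, and they differ by the pair of Dicer mutations. Each group had 4 labelled libraries, described by the submitters as biological replicates without further detail on how the plants were kept apart. Col, the wild type, is present in the deposited table as a mean but has no labelled library in the series, so it is given here only by the authors' values.

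Ethylene is a gaseous plant hormone. Without it, receptors such as ETR1 keep the kinase CTR1 active, and CTR1 phosphorylates EIN2 and holds it inactive at the endoplasmic reticulum. With ethylene this block ends, a part of EIN2 moves to the nucleus, and the transcription factors EIN3 and EIL1 accumulate and switch on response genes. EBF1 and EBF2 are the F-box subunits of the ubiquitin ligase that marks EIN3 and EIL1 for degradation. EIN5 was itself found as an ethylene-insensitive mutant, and ein5 mutants are known to accumulate EBF1 and EBF2 transcripts.

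Both F-box genes lie on the minus strand of the RefSeq assembly TAIR10.1, EBF1 at chr2:10847375-10850797 with 2 exons and 3052 spliced bases, and EBF2 at chr5:8794252-8797349 with 2929 spliced bases. Because a small RNA is assigned by its own 21 or 22 bases, the stretches that paralogues share decide which reads cannot be told apart. The longest run shared by the coding sequences of EBF1 and EBF2 is 23 bases, in capitals below within 90-base windows of the coding strand at chr2:10849603-10849692 and chr5:8796439-8796528, both within an exon. The paralogues match at 69 of the 90 positions.
EBF1: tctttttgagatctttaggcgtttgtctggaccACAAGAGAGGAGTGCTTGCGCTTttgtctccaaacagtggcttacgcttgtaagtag
EBF2: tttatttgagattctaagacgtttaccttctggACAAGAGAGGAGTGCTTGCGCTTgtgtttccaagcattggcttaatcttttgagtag
Over the whole spliced transcript, EBF1 shares only 3 of its 3032 21-base words with EBF2 (0.0989%) and 2 of its 3031 22-base words (0.066%). Elsewhere in the genome, 8 of the 21-base words of EBF1 (0.264%) and 5 of the 2909 of EBF2 (0.172%) occur again. By exact match, nearly all positions of these transcripts thus give a small RNA that names its gene. Matches with mismatches were not counted.

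EIN3 and EIL1 are closer. Their longest shared coding run is 68 bases, again in capitals within windows at chr3:7262225-7262314 (minus strand) and chr2:11546591-11546680 (plus strand), which match at 87 of 90 positions.
EIN3: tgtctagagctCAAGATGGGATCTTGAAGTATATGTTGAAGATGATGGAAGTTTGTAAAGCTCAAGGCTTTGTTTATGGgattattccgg
EIL1: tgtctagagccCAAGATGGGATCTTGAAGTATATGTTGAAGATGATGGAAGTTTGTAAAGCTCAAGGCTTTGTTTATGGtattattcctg
EIN3 shares 95 of its 2428 21-base words with EIL1 (3.91%) and 87 of its 2427 22-base words (3.58%). The handling of reads with several matching places is not given in the sources used here, so the values of these 2 genes are uncertain to the extent that reads fall on shared words, and where on the genes the reads fall is not known. Over the whole genome, 5.52% of the 21-base words of EIN3 and 5.42% of those of EIL1 occur again. EBF2 also overlaps the protein-coding AT5G25340 by 533 bases, a gene listed at 0 in every group, and ETR1 overlaps AT1G66345 by 38 bases. EBF2 further overlaps the annotated antisense RNA AT5G03965 by 187 bases, and without a stated strand rule reads of the 2 cannot be told apart.

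Values are the authors' TPM. They behave as read numbers scaled to one total per library and size class with no correction for gene length, but the denominator is not stated. Library values were recovered from the group means, and the libraries are called a to d in falling order of their scale within each group and class. These letters do not carry the labels' replicate numbers and do not match libraries between the size classes. By this recovery 1 read was worth between 0.693 and 0.966. If values are per 1e6 reads, the scale ran from 1.035 to 1.442 in units of 1e6 reads. Small RNAs from root hair genes had es3 means from 0 to 1.19 and es3dd means from 0 to 0.221 in either class. The 4 leaf genes examined had means from 71.2 upwards. Small RNA levels do not measure mRNA, so these values cannot check the aerial label. At 21 nt 7031 genes were at 0 in es3 and 10780 in es3dd. Fewer cells of a type and less RNA per cell cannot be told apart in such bulk samples. Small RNAs at the mutated loci do not check the mutations; at 21 nt their means in es3 and es3dd were 3.38 and 1.13 for EIN5, 3.53 and 0.233 for SKI2, 6.87 and 1.58 for DCL4, and 4.04 and 0.241 for DCL2.

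In es3, small RNAs covered the gene of the F-box protein EBF1 far more densely than any other gene of the 7. Its 21-nt mean was 684 in es3, against 15.1 in Col and 8.5 in es3dd, and its 22-nt mean was 193, against 10.6 and 8.39. Between es3 and es3dd, 6 of the 7 genes rose in es3 at 21 nt and 4 of 7 at 22 nt, and 0 fell in either class. A gene was called where limma gave an adjusted p below 0.05, with Benjamini-Hochberg adjustment over all genes tested, and the groups differed by 1 or more on the log2 scale. By the same rule, 45.8% of the 17414 genes tested at 21 nt were higher in es3 and 7.71% were lower. At 22 nt 15.1% of 14658 genes were higher and 4.32% were lower. CTR1 at 21 nt had an es3dd mean of 0.47, passed the filter on low values only through es3 and could hardly be called other than higher. Without that filter 6 of the 7 genes were called higher at 21 nt, beside 8245 of 26233 genes. At 22 nt it was 3 of 7, beside 1987 of 25442 genes. The median log2 difference of the 7 genes was 1.94 at 21 nt and 1.11 at 22 nt, beside medians of 0.98 and 0.30 over all genes tested, so differences are also given relative to those medians. With libraries centred on the median gene, 4 of the 7 genes were called higher at 21 nt, EBF1, EBF2, EIN2 and EIL1, and 2 of 7 at 22 nt, EBF1 and EBF2. In that centred fit 3334 of all 17414 genes were higher and 4364 lower at 21 nt, and 1234 of 14658 higher and 1599 lower at 22 nt.

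**Figure D1:**
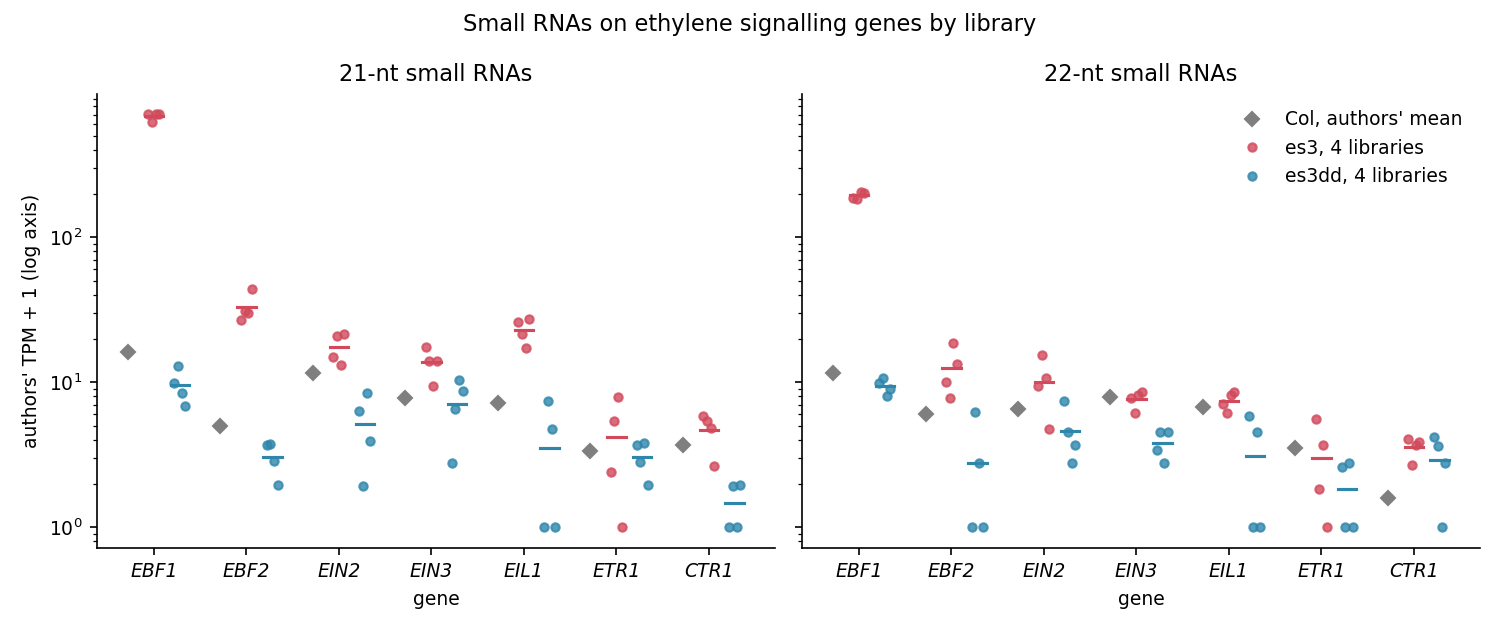
Small RNA level of each gene in every library at 21 nt (left) and 22 nt (right), as the authors' TPM plus 1 on a log axis; circles are the 4 libraries of es3 and of es3dd, lines are their means and grey diamonds are the authors' Col means. EBF1 in es3 stands above all other values in both classes, and the es3 and es3dd circles of ETR1 overlap in both.

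ETR1, the ethylene receptor at the head of the pathway, had few small RNAs in any group. At 21 nt its es3 libraries a to d had 1.39, 4.37, 6.88 and 0, from 17 reads in all, and its es3dd libraries had 2.66, 1.83, 2.79 and 0.966. The es3 libraries spread on both sides of the es3dd libraries. The log2 difference was 0.10 ± 0.55 (SE, n = 4 per group; adjusted p = 0.885 in limma), and its sign turned under several alternative settings. At 22 nt the values were 4.55, 0.848, 2.66 and 0 in es3 and 1.61, 0, 1.77 and 0 in es3dd, which also overlapped, with a log2 difference of 0.59 ± 0.57 (adjusted p = 0.486 in limma). A difference in ETR1 was not detectable at this depth.

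CTR1, the kinase that represses the pathway, was also sparse. Its 21-nt values were 4.85, 4.37, 3.82 and 1.64 in es3 and 0, 0.915, 0 and 0.966 in es3dd, where the 4 libraries held 2 reads in all. With so few es3dd reads the gene could hardly be called other than higher. Every es3 library lay above every es3dd library. CTR1 rose by 1.68 ± 0.47 on the log2 scale (SE, n = 4 per group; adjusted p = 0.00434 in limma), which is 0.70 above the median of all genes tested. That call was lost when libraries were centred on the median gene, at 0.74 with adjusted p = 0.211 in limma. At 22 nt the values were 3.03, 1.7, 2.66 and 2.84 in es3 and 3.22, 2.63, 0 and 1.78 in es3dd. These groups overlapped, with a log2 difference of 0.46 ± 0.54 (adjusted p = 0.572 in limma).

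EIN2, the membrane protein on which all ethylene responses depend, rose at 21 nt. Its es3 libraries had 13.9, 19.7, 12.2 and 20.5, and its es3dd libraries had 5.32, 0.915, 7.45 and 2.9. The lowest es3 library lay above the highest es3dd library. The log2 difference was 1.94 ± 0.40 (SE, n = 4 per group; adjusted p = 0.000264 in limma), or 0.96 above the median of all genes. At 22 nt EIN2 had 8.34, 14.4, 9.76 and 3.78 in es3 and 6.44, 3.5, 1.77 and 2.67 in es3dd, and the groups overlapped through es3 library d and es3dd library a. The 22-nt log2 difference of 1.11 ± 0.42 passed the threshold narrowly (adjusted p = 0.0457 in limma) and failed it in 6 of the 10 settings tried and in 6 of the 8 fits that left out 1 library, those without es3 library a, b or c or es3dd library b, c or d.

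EIN3, the main transcription factor of the pathway, differed less between the groups at 21 nt than its paralogue EIL1. It had 16.6, 13.1, 8.41 and 13.1 in es3 and 1.77, 5.49, 9.31 and 7.73 in es3dd. The groups overlapped, since es3 library c lay below es3dd library c. The log2 difference was 1.09 ± 0.38 (SE, n = 4 per group; adjusted p = 0.019 in limma), only 0.11 above the median of all genes. Centring libraries on the median gene gave 0.15 (adjusted p = 0.783 in limma). The call was also lost without es3 library a, b or d (adjusted p = 0.0698, 0.0506 and 0.0504 in limma) and without es3dd library a (0.69, adjusted p = 0.0875 in limma). At 22 nt the es3 values of 6.82, 5.09, 7.1 and 7.57 all lay above the es3dd values of 2.41, 3.5, 1.77 and 3.56, yet the log2 difference of 1.02 ± 0.43 missed the threshold (adjusted p = 0.0774 in limma).

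EIL1, which acts beside EIN3, rose in both classes. Its 21-nt values were 25, 20.4, 16.1 and 26.3 in es3 and 0, 6.4, 3.72 and 0 in es3dd. Every es3 library lay above every es3dd library, and 2 of the es3dd libraries held no read. The log2 difference was 3.21 ± 0.50 (SE, n = 4 per group; adjusted p = 9.43e-06 in limma), or 2.23 above the median of all genes. At 22 nt EIL1 had 6.07, 5.09, 7.1 and 7.57 in es3 and 4.83, 0, 3.54 and 0 in es3dd, again without overlap. Its 22-nt log2 difference was 1.70 ± 0.51 (adjusted p = 0.00962 in limma), and the call was lost without es3dd library b (1.31, adjusted p = 0.0552 in limma) or d (1.31, adjusted p = 0.0516 in limma) and on centring on the median gene (1.27, adjusted p = 0.0585 in limma).

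EBF1, the F-box gene with most small RNAs, had 21-nt values of 705, 622, 704 and 705 in es3, from 3650 reads, and of 8.86, 11.9, 7.45 and 5.8 in es3dd, from 37 reads. All es3 libraries lay more than an order of magnitude above all es3dd libraries. The means were 684 ± 41.5 and 8.5 ± 2.58 (SD, n = 4), and the log2 difference was 6.21 ± 0.17 (SE; adjusted p = 1.18e-19 in limma), or 5.23 above the median of all genes. By log2 difference of value plus 1, EBF1 ranked 39th of the 17414 genes tested at 21 nt and 63rd of the 14658 at 22 nt. By fold change in the authors' deposited table for es3 over es3dd, it ranked lower. There it was 152nd of the 6165 genes called higher at 21 nt and 191st of the 1538 at 22 nt. At 22 nt EBF1 had 186, 183, 204 and 200 in es3 and 8.85, 9.63, 7.07 and 8 in es3dd, with a log2 difference of 4.38 ± 0.18 (adjusted p = 8.72e-35 in limma), 4.08 above the median of all genes. EBF1 was called in every one of 10 settings and 8 fits that left out a library in each class, with log2 differences from 5.27 to 8.05 at 21 nt and from 3.89 to 5.90 at 22 nt over the settings.

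EBF2, its partner in the turnover of EIN3 and EIL1, rose as well but from a lower level. Its 21-nt values were 25.7, 29.9, 29 and 42.7 in es3 and 2.66, 2.74, 1.86 and 0.966 in es3dd. The groups were well apart, and es3 library d was the highest. The log2 difference was 3.44 ± 0.33 (SE, n = 4 per group; adjusted p = 3.72e-09 in limma), or 2.46 above the median of all genes. At 22 nt EBF2 had 9.1, 6.78, 17.7 and 12.3 in es3 and 0, 5.25, 1.77 and 0 in es3dd. The 22-nt groups did not overlap either, and the log2 difference was 2.54 ± 0.49 (adjusted p = 2.83e-05 in limma), called in all 10 settings and in all 8 fits that left out a library.

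**Figure D2:**
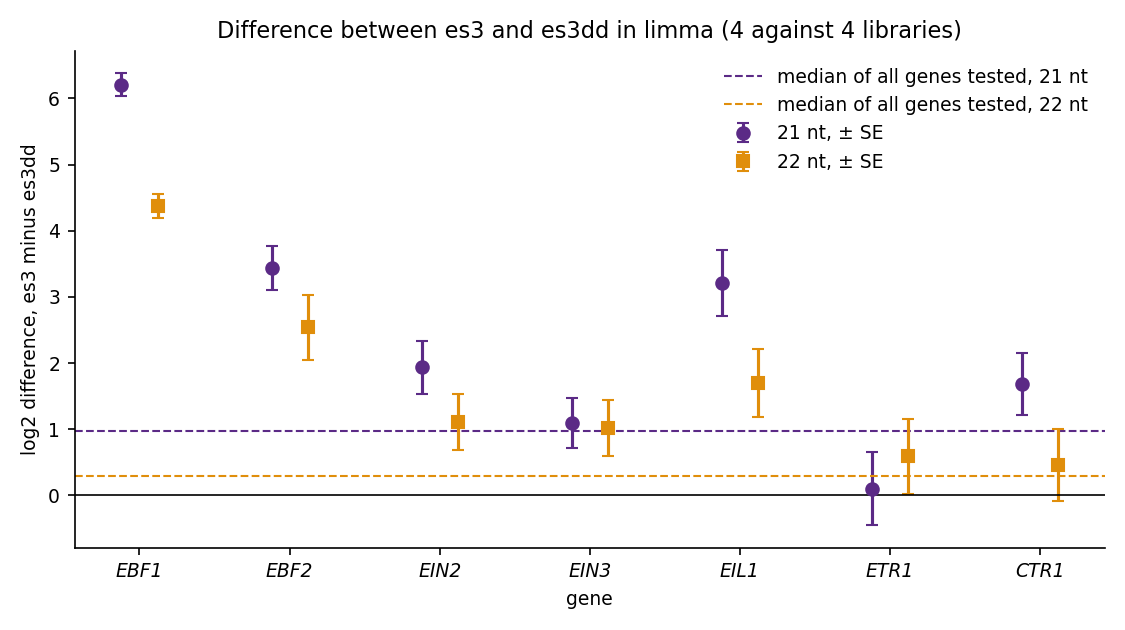
Log2 difference between es3 and es3dd of each gene in limma with its SE, from 4 against 4 libraries, at 21 nt (circles) and 22 nt (squares); dashed lines mark the median of all genes tested in each class (0.98 and 0.30). EBF1 lies highest at 6.21 and 4.38, and EIN3 at 21 nt lies within 1 SE of the 21-nt median.

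Levels can be compared between genes per length of transcript. In es3 at 21 nt, the mean TPM per kb of exon was 224 for EBF1, 10.9 for EBF2, 9.28 for EIL1, 5.24 for EIN3, 3.42 for EIN2, 1.14 for ETR1 and 1.13 for CTR1. The ranges over libraries of neighbours in this order overlapped for EBF2 and EIL1, for EIN3 and EIN2 and for ETR1 and CTR1. Both genes of a pair come from the same libraries, and a difference per kb within libraries was not tested for these pairs. In Col at 21 nt the levels lay closer together, at 4.94 for EBF1, 2.74 for EIN3, 2.62 for EIL1, 2.17 for EIN2, 1.35 for EBF2, 0.851 for ETR1 and 0.823 for CTR1. EBF1 made up 31.7% of the summed 21-nt signal of the 7 genes in Col, 88.4% in es3 and 32.9% in es3dd, and 28.7%, 83.5% and 39.2% of their 22-nt signal. Among 26712 protein-coding genes, EBF1 ranked 741st by 21-nt mean in Col, 53rd in es3 and 878th in es3dd, while EBF2 ranked 3556th, 978th and 4611th.

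The 2 F-box paralogues did not keep their proportion. The ratio of the mean levels of EBF1 and EBF2 at 21 nt was 3.81 in Col, 21.5 in es3 and 4.13 in es3dd, and per kb of exon it was 3.66, 20.6 and 3.96. Within libraries at 21 nt, the log2 ratio of EBF1 over EBF2, each value plus 1, was 4.41 ± 0.31 (SD, n = 4) in es3, ranging from 4.01 to 4.73. In es3dd it was 1.64 ± 0.18, from 1.43 to 1.79. The groups did not overlap, and the difference of 2.77 had p = 0.0286 in a two-sided exact permutation test, the smallest p that 4 against 4 libraries allow. A ratio within a library does not depend on how libraries were scaled, other than through the added 1.

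At 22 nt the log2 ratio of EBF1 over EBF2 was 4.04 ± 0.47 in es3 and 2.19 ± 1.24 in es3dd (SD, n = 4; difference 1.84, exact permutation p = 0.0286). With 0.5 in place of 1 as the added value, the 22-nt difference was 1.38 and the groups overlapped (exact permutation p = 0.257). For EIL1 over EIN3 at 21 nt the log2 ratio was 0.74 ± 0.19 in es3 and -1.38 ± 1.36 in es3dd (SD, n = 4; difference 2.12, exact permutation p = 0.0286). EIL1 had no 21-nt read in es3dd libraries a and d, so the size of this difference rests on the added value. It was 2.57 with 0.5 added and 1.19 with 5 added, without overlap in either. The 22-nt ratio of EIL1 over EIN3 did not separate the groups, at -0.04 ± 0.07 and -0.72 ± 1.69 (exact permutation p = 0.429). Over these 4 comparisons, which were chosen after the values had been seen, the Benjamini-Hochberg adjusted p from the permutation tests was 0.0381 for the first 3 and 0.429 for the last.

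**Figure D3:**
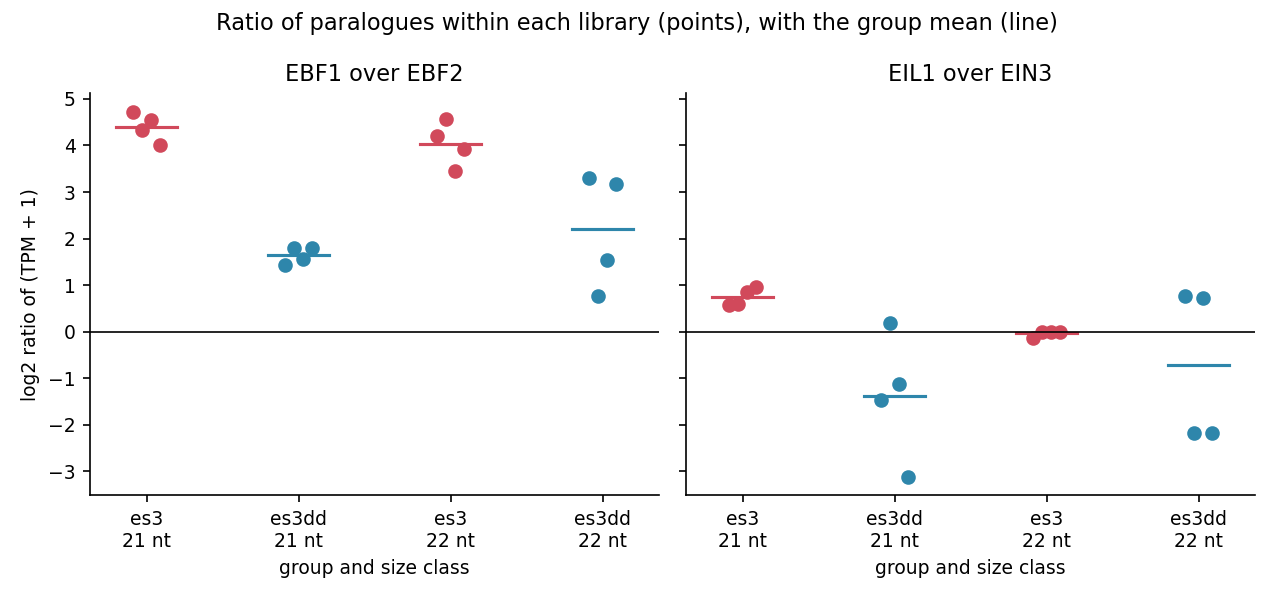
Log2 ratio of EBF1 over EBF2 (left) and of EIL1 over EIN3 (right) within each library, from TPM plus 1, by group and size class; points are libraries, with 4 in each group, and lines are group means. At 21 nt the es3 ratios of EBF1 over EBF2 lie from 4.01 to 4.73 and the es3dd ratios from 1.43 to 1.79.

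Against the wild type, small RNAs were higher in es3 at 3 of the 7 genes at 21 nt, EBF1, EBF2 and EIL1, and at EBF1 alone at 22 nt, by the authors' deposited table at an adjusted p below 0.05 and an absolute log2 fold change of at least 1. By the same rule the authors' deposited table calls 21.2% of 18061 genes higher and 3.89% lower at 21 nt, and 7.85% of 14640 higher and 3.96% lower at 22 nt, with 0 of the 7 genes lower in either class. This comparison shares its es3 libraries with that against es3dd. EBF1 had a log2 fold change of 5.52 at 21 nt (adjusted p = 2.74e-119) and of 4.2 at 22 nt (adjusted p = 5.06e-52) in the authors' deposited table. By their means, EBF1 was 45.4-fold higher in es3 than in Col at 21 nt and 18.2-fold higher at 22 nt, and it ranked 220th by fold change among the 3837 genes that the authors' deposited table calls higher at 21 nt.

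In the authors' deposited table, EBF2 had a log2 fold change over Col of 2.97 at 21 nt (adjusted p = 1.37e-08) and of 1.2 at 22 nt (adjusted p = 0.167). EIL1 had 1.84 (adjusted p = 0.000338) and 0.14 (adjusted p = 0.918) in the authors' deposited table. The 21-nt values for the other 4 genes in the authors' deposited table were 0.66 for EIN2, 0.93 for EIN3, 0.43 for ETR1 and 0.46 for CTR1, with adjusted p-values from 0.108 to 0.762. Their 22-nt log2 fold changes in the authors' deposited table ran from -0.28 for ETR1 to 2.06 for CTR1, with adjusted p-values from 0.324 upwards. CTR1 had a Col mean of 0.598 at 22 nt, and whether its mean differs from that in es3 was not detectable by the authors' test.

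For es3 over es3dd, the authors' deposited table calls 6 of the 7 genes higher at 21 nt, ETR1 being the exception, beside 32.3% of 19089 genes, and 0 lower, beside 6.61%. At 22 nt the authors' deposited table calls 2 of 7 higher, EBF1 and EBF2, beside 10.9% of 14139 genes, and 0 lower, beside 3.78%. The 22-nt calls of the authors' deposited table leave out EIN2 (1.33, adjusted p = 0.0715) and EIL1 (1.59, adjusted p = 0.0743). Set side by side as means, es3dd over Col ran from 0.176-fold for CTR1 to 0.904-fold for EIN3 at 21 nt. At 22 nt it ran from 0.332-fold for ETR1 to 3.19-fold for CTR1, the only one of the 7 genes above Col. The share of all genes with a lower mean in es3dd was not counted. Protein-coding genes whose 2 class means sum to 10 or more numbered 2600 in Col and 1690 in es3dd, which does not give the direction of each gene. Whether lower values in es3dd were particular to these genes was not tested. No test of es3dd against Col was available.

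The small RNAs of EBF1, EBF2 and EIL1 in es3 were mostly 21 nt long. The share of 22-nt small RNAs in the sum of both class means was 22.0% for EBF1, 26.5% for EBF2 and 22.7% for EIL1 in es3. In Col the shares were 41.4%, 56.2% and 48.2%, and in es3dd they were 49.7%, 46.0% and 45.2%. Counted by reads, the 22-nt share of EBF1 was 19.8% in es3 (Wilson 95% interval 18.7 to 21) and 51.3% in es3dd (40.3 to 62.2). For EIL1 it was 20.4% (14.7 to 27.6) and 47.6% (28.3 to 67.6), and for EBF2 24.0% (18.8 to 30.0) and 47.1% (26.2 to 69.0), intervals which cover counting error only. The intervals of es3 and es3dd were apart for EBF1, only narrowly apart for EIL1 (27.6 against 28.3) and overlapped for EBF2. The EIL1 reads in es3dd libraries a to d were 0, 7, 4 and 0 at 21 nt and 6, 0, 4 and 0 at 22 nt. Such spread between libraries is not in the intervals, so they do not set EIL1 apart from EBF2.

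EIN2 and EIN3 had 22-nt shares of 35.4% and 34.1% of their means in es3. Counted by reads these were 32.8% (Wilson 95% interval 25.4 to 41.3) and 31.0% (22.8 to 40.6). Both intervals overlapped the es3 intervals of EBF2 and EIL1. Their shares in Col were 34.4% and 50.6%, and in es3dd 46.4% and 31.6%. Over protein-coding genes whose 2 class means sum to 10 or more, the median share was 47.9% in Col (2600 genes), 29.7% in es3 (4812 genes) and 52.2% in es3dd (1690 genes). In es3 the middle 50% of those genes lay between 23.4% and 38.4%, so EBF1 and EIL1 lay just below that range and EBF2, EIN2 and EIN3 within it. The median over these genes was thus itself lower in es3 than in Col or es3dd, and no test of the shares was made. ETR1 and CTR1 summed below 10 in every group, and their shares rest on few reads. EBF2 also summed below 10 in Col, and in es3dd only EBF1 reached 10, so those shares rest on low values as well.

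**Figure D4:**
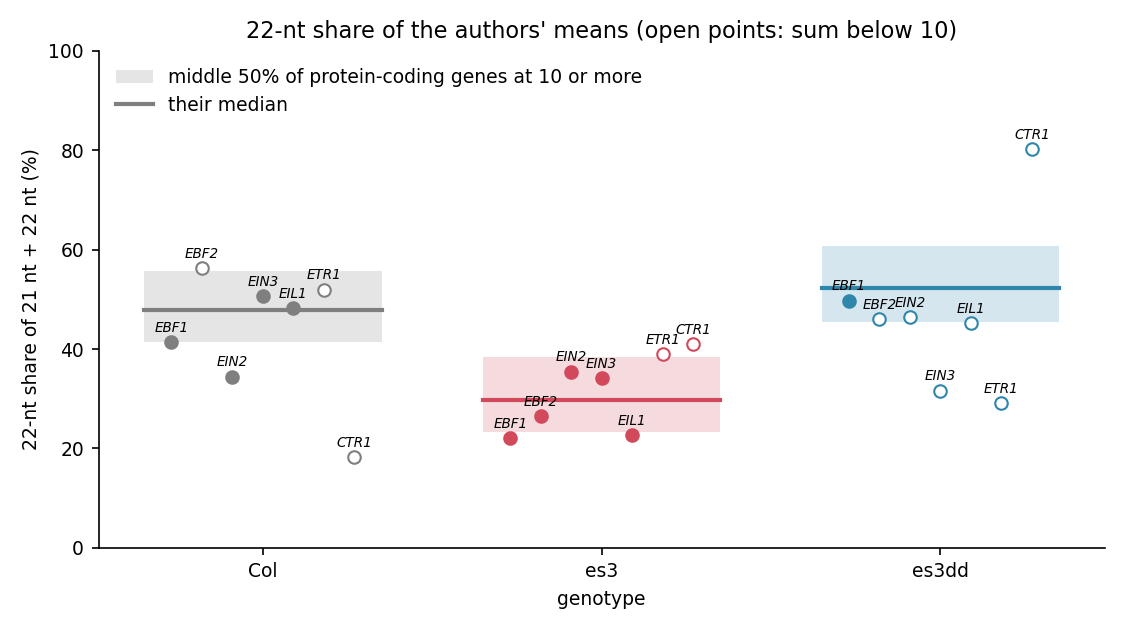
Share of 22-nt small RNAs in the sum of the authors' 21-nt and 22-nt means (percent) for each gene in Col, es3 and es3dd; open circles mark genes whose sum is below 10, and bands with a line show the middle 50% and the median of protein-coding genes at 10 or more. In es3 the shares of EBF1 (22.0%) and EIL1 (22.7%) lie just under the band, and the median over genes is 47.9% in Col and 29.7% in es3.

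Beyond the 7 genes, 41 other genes of ethylene perception, signalling, response and synthesis were examined in 5 lists. At 21 nt 22 of them were abundant enough to test, and 18 rose in es3 against es3dd while 0 fell, with a median log2 difference of 1.56 beside 0.98 for all genes, of which 45.8% were higher and 7.71% lower. Genes low in es3dd could pass the filter through es3 alone, and without the filter 19 of 35 were called higher, with a median of 1.24, beside 8245 of 26233 genes and a median of 0.55. With libraries centred on the median gene, 7 rose and 2 fell, the 7 being 1 of 2 receptor genes, 0 of 5 F-box and ligase partners, 4 of 8 response genes and 2 of 6 biosynthesis genes, beside 3334 higher and 4364 lower of all 17414 genes. At 22 nt 4 of 19 rose and 0 fell, beside 15.1% and 4.32% of all genes, with a median of 0.84 beside 0.30. Without the filter 4 of 33 were called higher at 22 nt, beside 1987 of 25442 genes, with a median of 0.25 beside 0.23. Those 4 were all response genes, ERF104, TEM1, TEM2 and HLS1.

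Among the receptors and their regulators, ERS1 and EIN4 were the 2 tested at 21 nt. Both were called higher, beside 45.8% of all genes, and without the filter 3 of 5 were, beside 8245 of 26233 genes. EIN4, a receptor of the ETR2 type, had 7.63, 2.19, 4.59 and 13.9 in es3, and its es3dd libraries held 1 read in all. EIN4 thus passed the filter only through es3 and could hardly be called other than higher. It rose by 2.56 ± 0.50 on the log2 scale (adjusted p = 0.00016 in limma), and ERS1 by 1.5 ± 0.41 (adjusted p = 0.00386 in limma). Of the F-box genes that bind EIN2 and the ligase subunits, 3 of 5 were called higher at 21 nt, near the 45.8% of all genes, and 0 of 5 with libraries centred on the median gene. The subunits CUL1 and SKP1 had log2 differences of 1.52 and 1.24. The F-box gene ETP2 had 1.19, with overlapping groups, since its lowest es3 library was at 1.53 and its highest es3dd library at 1.83, and the authors' deposited table does not call it (adjusted p = 0.0729). The EIN3-like gene EIL3 had a log2 difference of -0.19 ± 0.46 at 21 nt (-1.13 and called lower with libraries centred on the median gene), and the other 3 genes of that kind were too low to test.

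Of 10 response genes, 8 passed the filter at 21 nt and were called higher in es3, and 4 of the 8 were with libraries centred on the median gene. Of those 8, 5 had es3dd means below 1, from 0 to 0.886, and could hardly be called other than higher, so the count is given as a description. The repressor of flowering RAV2, also named TEM2, had 117, 107, 130 and 126 at 21 nt in es3 and 0.886, 2.74, 5.58 and 8.69 in es3dd. Its groups lay far apart, with a log2 difference of 4.71 ± 0.34 (adjusted p = 1.38e-11 in limma), and after EBF1 it had the highest 21-nt mean in es3 of all ethylene genes examined. ERF104, an ethylene response factor, had 37.4, 48.1, 45.9 and 40.2 in es3 and 3.54, 0, 0 and 0 in es3dd (log2 difference 4.90 ± 0.42, adjusted p = 5.11e-10 in limma). TEM1, the paralogue of TEM2, rose by 3.92 ± 0.32, and HLS1, needed for the apical hook, by 3.73 ± 0.40. In the authors' deposited table these 4 genes were also higher in es3 than in Col at 21 nt, with log2 fold changes of 3.11 for TEM2, 4.67 for ERF104, 2.88 for TEM1 and 4.70 for HLS1.

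Of the biosynthesis genes 5 of 6 tested at 21 nt rose, beside 45.8% of all genes. Without the filter 5 of 14 were called, beside 8245 of 26233 genes. ACS6 and ETO1 had es3dd means of 0.906 and 0.47 and could hardly be called other than higher. ACS6, an enzyme that makes the ethylene precursor ACC, had 10.4, 10.9, 18.3 and 14.8 in es3 and 2.66, 0, 0 and 0.966 in es3dd, without overlap. Its log2 difference was 3.12 ± 0.45 (adjusted p = 2.87e-06 in limma). ETO1, EOL1 and EOL2, which encode adaptors that direct ACC synthases to degradation, rose by 1.71 ± 0.49, 1.40 ± 0.55 and 2.26 ± 0.45. Their adjusted p-values in limma were 0.00517, 0.0313 and 0.000178. ETO1 and EOL1 lay only 0.73 and 0.42 above the median of all genes, and the es3dd libraries of ETO1 held 2 reads in all. The EOL1 groups overlapped, with an es3 library at 1.64 and an es3dd library at 4.43, and the authors' deposited table does not call it (adjusted p = 0.108).

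**Figure D5:**
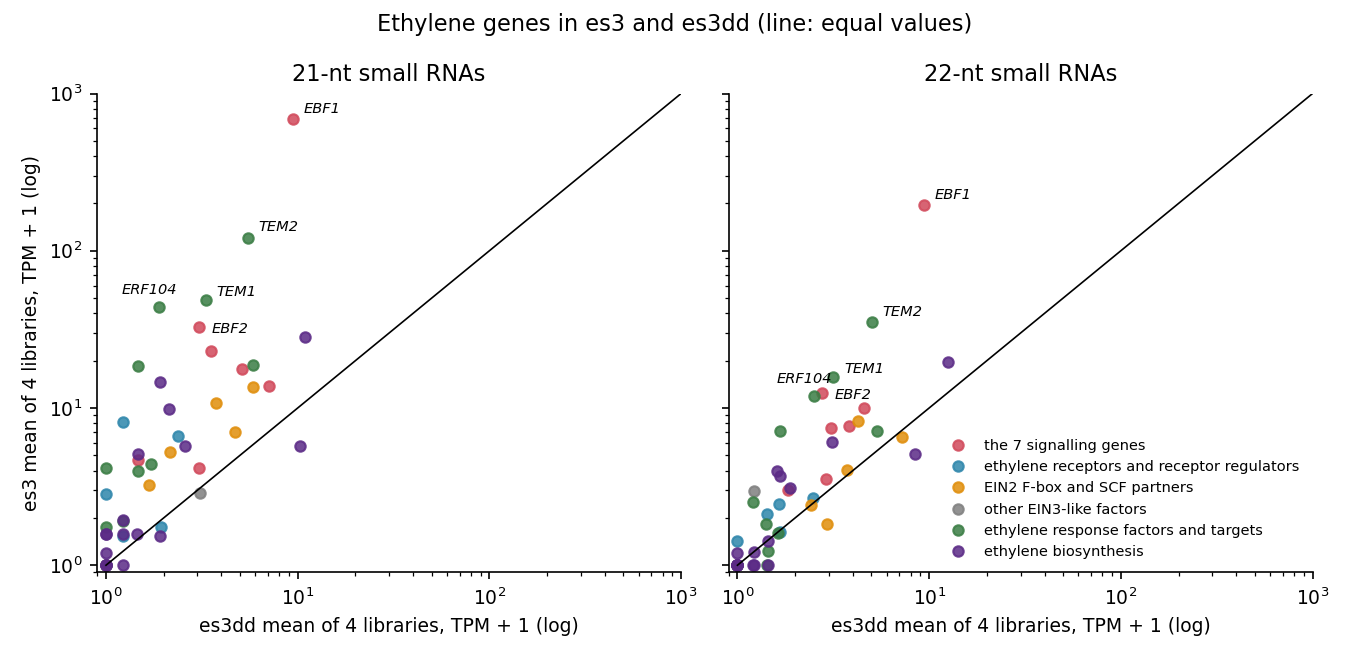
Mean small RNA level in es3 against es3dd for the 7 signalling genes and 41 other ethylene genes at 21 nt (left) and 22 nt (right), as TPM plus 1 on log axes; points are genes coloured by list, and the line marks equal values. EBF1 lies highest in both panels, followed by TEM2.

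The 6 group means of EBF1 lay closer to those of other genes than to those of EBF2. Closeness was taken as the Euclidean distance of log2(mean + 1), a description over 6 means. The distance was not centred for each gene, so it follows the level of a gene as well as its pattern. By this distance, the 5 nearest genes were AT4G24780 (0.833), SAG20 (0.981), ATCSLA09 (1.02), BAM1 (1.02) and MYB28 (1.35). Their 21-nt means in es3 ran from 424 to 855, and in es3dd from 6.48 to 10.5. EBF2 lay at a distance of 6.67, as the 1349th nearest gene, and EBF1 was the 21579th nearest to EBF2. The genes nearest to EBF2 were AT4G38660 (0.382), AT1G73660 (0.466), SPL14 (0.545), AT2G25670 (0.595) and TRFL1 (0.611), whose 21-nt means in es3 ran from 27.1 to 35.6.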

How the data were processed

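Small RNAs of 21 and 22 nt were measured in 8 libraries, 4 of es3 and 4 of es3dd. Tools listed in the submitters' processing notes are SAMtools 1.9, Bowtie 1.2.2 and DESeq2 (no version), with TAIR10 as the genome build and no roles given. Counting rules, annotation, strand and reads with several matching places are not given in the sources used here. The deposited table holds group means in TPM, per the file headers, and its denominator is not stated. The values behave as read counts brought to a common total without division by length. The authors also deposited a log2 fold change, a p-value and an adjusted p-value for es3 over Col and es3 over es3dd. Other per-sample columns not used numbered 0.

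Group means worth up to 5000 reads were decomposed into whole read numbers of the 4 libraries, with a relative tolerance of 5e-15. A unique solution was found in es3 for 25315 of 25317 genes (21 nt) and 23786 of 23792 (22 nt), and in es3dd for 21600 of 21600 and 21862 of 21862. Up to 1500 reads, 0 of 2000 random values matched in any column. Above it 9 of 90 random values matched at 21 nt in es3, the range that holds the EBF1 mean, so its split between libraries is less certain than its mean. Genes above reach (72 and 18 in es3, 40 and 21 in es3dd) were not tested.

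Tests were made in R 4.3.3 with limma 3.58.1 and a mean-variance trend, on log2(value + 1) of all genes with a mean of at least 1, with Benjamini-Hochberg adjustment, and the procedure was tested on simulated data. A fold change on that scale understates the change of low genes. P-values measure the spread between these libraries, part of which may be technical. All 7 genes were named, and of the other lists up to the 4 genes with the largest called difference. The 7 genes and all lists were chosen with earlier results of these data known. The pair ratios were added after the values had been seen. Sequences and positions are from RefSeq TAIR10.1, where 7 of 7 genes matched by locus; no coordinates of the deposited table were used. One gene of the other ethylene lists is not reported here by name.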

Additional observations from a re-analysis of the deposited data

Results flagged for a closer look

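EBF1 at 21 nt in es3 had 1 library apart from the others, library b at 622 against 704 to 705 in the other 3. The gap to the next value was 0.988 of the whole range of the group, above Dixon's 95% critical value for 4 samples. Of 28 groups of 4 libraries examined, 1 was marked in this way, and chance marks about 1 in 20. Without that library the call of EBF1 was kept. The split of this mean between libraries is less certain than the mean itself, as the number of reads is high, and its part in the mark was not tested.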

How the results depend on the processing

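EBF1 and EBF2 were called higher in es3 than in es3dd in all 10 settings and all 8 fits leaving out 1 library, in both classes. The count of the 7 genes called at 22 nt went from 4 to 2 with a pseudocount of 5, with median-centred libraries and with quantile normalization; it ranged from 2 to 4 on leaving out 1 library (2 without es3dd library b or d), and at 21 nt from 5 to 6. The calls lost under those 3 settings were those of EIN2 and EIL1. ETR1 at 21 nt changed sign, to -0.02 with a pseudocount of 0.5, -0.84 median-centred, -0.78 with quantile normalization and -0.10 with voom weights, and from -0.34 to 0.65 on leaving out 1 library (negative without es3 library b or c or es3dd library d). CTR1 at 22 nt was -0.07 with quantile normalization. CTR1 and EIN3 at 21 nt lost their calls with a pseudocount of 5 (0.65 and 0.72), median-centred (0.74 and 0.15) and with quantile normalization (0.53 and 0.27). At 22 nt both were called when libraries were scaled to MIR loci (1.5 and 2.31) or to plastid-encoded genes (1.21 and 2.00). Over all genes at 21 nt, 7981 higher and 1342 lower became 3334 and 4364 median-centred, 3298 and 4426 with quantile normalization, 13811 and 57 scaled to MIR loci and 12750 and 90 scaled to plastid-encoded genes. At 22 nt, 2215 and 633 became 1234 and 1599, 1239 and 1254, 9486 and 42, and 7560 and 76. In the authors' deposited table, 4 of 7 genes at 21 nt were called higher at an adjusted p below 0.01 for es3 over es3dd, beside 4402 of 19089 genes. The causes were not tested. No paired analysis was possible because replicate numbers could not be tied to the recovered values, and the planned replicate block was not run. Depth limits ETR1 and CTR1 most, at 2 to 20 reads per group and class.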
